A study of Mus musculus with 14 samples.

Results

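The 36 genes described here encode proteins of the nucleolus that make ribosomes. They were chosen by gene symbol in the annotation of the array, and all 36 were found among its 18193 genes. RNA from pooled whole lungs of ICR mice, an outbred strain, had been hybridised to 14 oligonucleotide arrays, 2 at each of 7 ages. These were embryonic days 12, 14, 16 and 18 (E12, E14, E16 and E18), postnatal days 2 and 10 (P2 and P10) and postnatal day 30, which the labels call adult (Adult). All samples are labelled female, and the labels name no engineered allele and no agent. Neither the size of a pool nor whether both arrays of an age came from separate pools is stated, so p-values measure only the spread between arrays, which may be technical.

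Ribosomes are built in the nucleolus, where RNA polymerase I copies the ribosomal RNA genes into a long precursor. Small nucleolar ribonucleoproteins (snoRNPs) modify that precursor, box C/D particles by methylation and box H/ACA particles by pseudouridylation. Assembly factors then cut, fold and package it into the small and the large subunit. Growing and dividing cells need many ribosomes, and several of these genes are known targets of the transcription factor Myc.

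Values are log2 levels as deposited, and differences are log2 differences with the later age minus the earlier one. Array medians lay between 6.55 and 6.62, and the Pearson correlation of the 2 arrays of an age, taken across probe sets, was 0.9953 to 0.9977. A gene was represented by its probe set with the highest mean over all arrays, and counted as measured when its highest age mean (Max) was above 7, which held for 11663 genes and for all 36 members. Markers of lung epithelium were present, among them the surfactant protein genes Sftpb and Sftpc, with mean levels of 13.40 and 14.81 in Adult lung. Scgb1a1, another epithelial marker, read 9.59 and 8.10 on the E12 arrays, against 4.21 and 4.19 on the E14 arrays. Heart muscle markers stood apart in E16 replicate 1. The median level of 8 such genes was 11.04 there and 8.32 in E16 replicate 2, against 5.83 to 6.77 in the E12 and E14 arrays, and lay between 8.53 and 9.99 in the later arrays. The median level of 4 skeletal muscle markers was 5.34 in E12 replicate 2 and 4.50 in E12 replicate 1. It lay between 4.21 and 4.55 in the arrays after E12. The source of these signals was not tested.

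All 36 members were lower in Adult lung than in E12 lung at an adjusted p under 0.05 (limma), where 42.5% of measured genes were lower and 39.5% higher. The median difference was -1.79, against -0.04 over the measured genes, and the median fold decrease was 3.45, with a range of 1.39 to 8.36. The highest of the 7 age means fell at E12 for 32 members and at E14 for the other 4. By the thresholds of the study, an adjusted p under 0.05 over all ages, Max above 7 and a difference above 1.2 between the highest and lowest age mean, 33 members were dynamic, against 41.7% of measured genes. Ubtf, Rrp9 and Imp4 were the 3 that were not. Because each array holds whole lung, fewer cells of a type and less RNA per cell cannot be told apart.

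**Figure D1:**
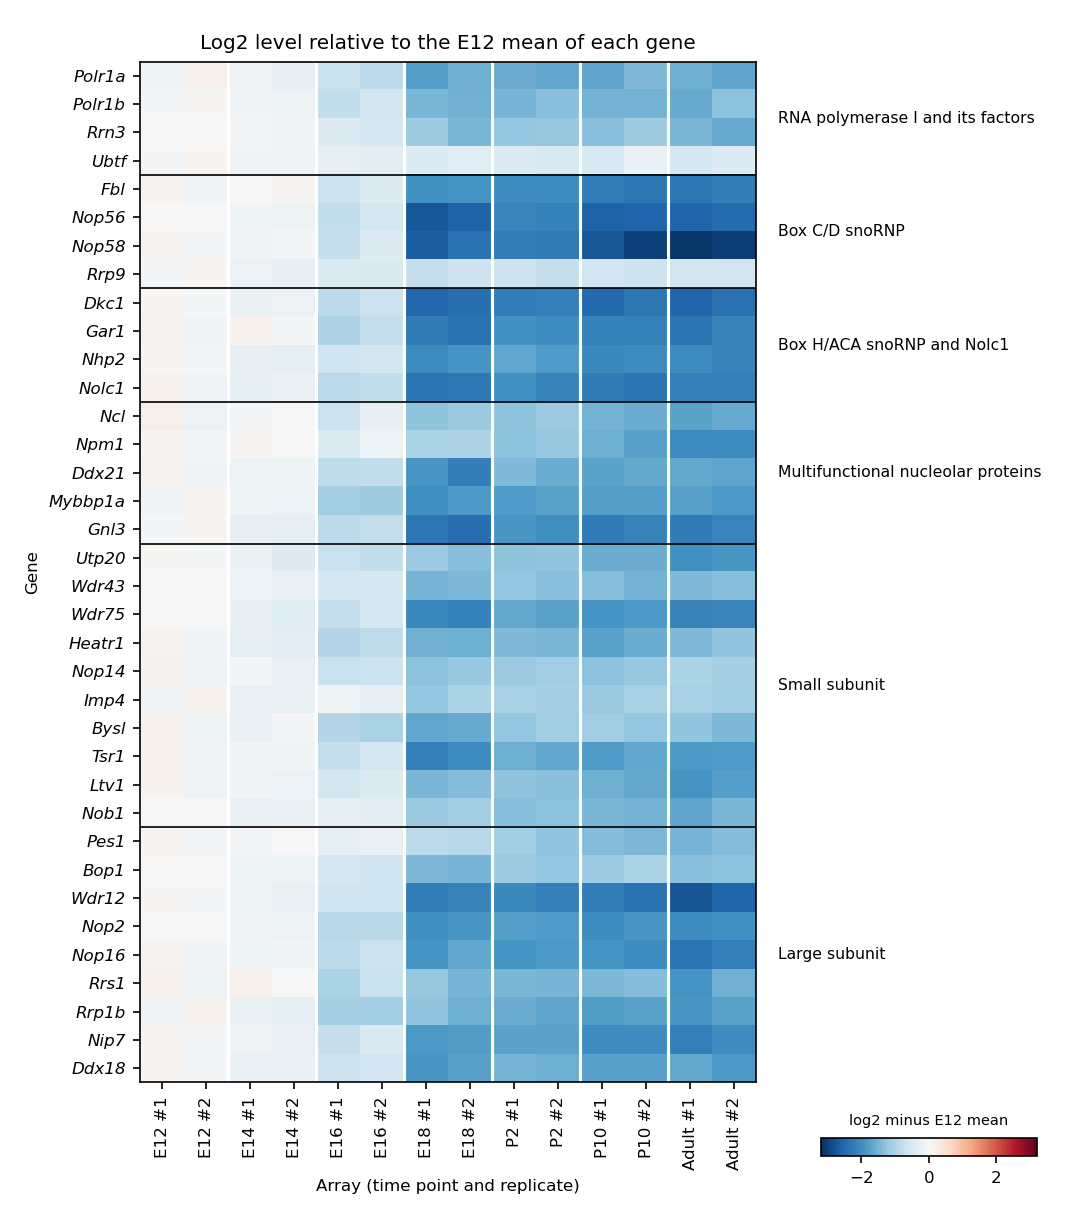
Log2 level of the 36 nucleolar genes (rows, grouped by role) on each of the 14 arrays (columns, in order of age), relative to the mean of the 2 E12 arrays of the same gene. Blue is lower than at E12, and the colour deepens between E16 and E18 in nearly every row, while Ubtf and Rrp9 stay pale.

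The largest falls were in snoRNP proteins and in factors of the large subunit. Nop58, which with Nop56 forms the core of box C/D particles, read 7.89 and 8.01 on the Adult arrays, against 11.09 and 10.94 on the E12 arrays. Its levels did not overlap between the ages, and the difference was -3.06 ± 0.125 (SE; adjusted p = 1.04e-10). Wdr12, a subunit of the PeBoW complex that matures large-subunit RNA, read 6.81 and 7.01 in Adult lung, against 9.61 and 9.51 in E12 lung. Both Adult arrays again lay below both E12 arrays, by -2.65 ± 0.102 (SE).

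Nop56 read 8.51 and 8.59 on the Adult arrays, against 11.08 and 11.04 on the E12 arrays, with a difference of -2.51. Dkc1, the pseudouridine synthase of box H/ACA particles and of telomerase, read 8.66 and 8.80 in Adult lung, against 11.26 and 11.13 in E12 lung (-2.46). Nop16, an assembly factor of the large subunit, read 7.52 and 7.69 in Adult lung, against 9.97 and 9.81 in E12 lung (-2.28). In all 3 the arrays of the ages were separate by far more than the replicates differed, with adjusted p of 5.25e-11, 9.60e-11 and 4.04e-10.

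The smallest changes were those of Ubtf, Rrp9, Nop14, Imp4 and Bop1. Ubtf, which binds the ribosomal RNA genes and keeps their chromatin open, read 9.79 and 9.94 on the Adult arrays, against 10.29 and 10.40 on the E12 arrays. The arrays did not overlap, and the difference of -0.48 ± 0.103 (SE) passed the test (adjusted p = 0.00107). Rrp9, the protein that marks the U3 particle among box C/D particles, read 8.80 and 8.79 in Adult lung, against 9.33 and 9.43 in E12 lung (-0.59; adjusted p = 3.13e-05). A second probe set of Ubtf, with a lower mean level, gave a larger difference of -1.18. The other probe sets of the members gave the same direction, since all 31 further probe sets with Max above 7 were lower in Adult lung at an adjusted p under 0.05.

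Nop14, a factor of the small subunit, read 7.48 and 7.45 on the Adult arrays, against 8.62 and 8.39 on the E12 arrays (-1.04). Imp4, which belongs to the particle that holds the U3 RNA, read 8.71 and 8.65 in Adult lung, against 9.63 and 9.85 in E12 lung (-1.06). Bop1, a partner of Wdr12, read 8.52 and 8.54 in Adult lung, against 9.86 and 9.87 in E12 lung (-1.33). None of the 3 overlapped between the ages. By role, the median difference was deepest for the box C/D proteins (-2.39, 4 genes) and the box H/ACA proteins with Nolc1 (-2.21, 4 genes), and was -1.79 for the 9 large-subunit factors, -1.78 for the 5 multifunctional proteins, -1.5 for the 4 genes of RNA polymerase I and -1.48 for the 10 small-subunit factors. Differences between the roles were not tested.

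The members were then followed step by step. From E12 to E14 the median difference was -0.15, and 0 members were lower and 0 higher at an adjusted p under 0.05 with limma. At an unadjusted p under 0.05, 11 were lower and 0 higher. The same model without moderation, here called the methods' test, gave 0 lower after adjustment and 12 before it. Among measured genes 0.986% were lower and 5.12% higher at this step after adjustment. Their share at an unadjusted p was not counted, so the 11 and 12 have no background to be set against. The largest differences were those of Heatr1 (-0.33), Utp20 (-0.32) and Wdr75 (-0.32), all factors of the early small-subunit particle. Wdr75 read 10.43 and 10.30 at E14, against 10.69 and 10.68 at E12. Its arrays did not overlap, but the adjusted p was 0.0885. Fbl, Npm1, Gar1 and Rrs1 had differences between 0.02 and 0.07.

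From E14 to E16, 31 of the 36 members fell and none rose, where 15.3% of measured genes were lower and 13.7% higher. The median difference was -0.52, against -0.03 over measured genes. Mybbp1a, a Myb-binding protein of the nucleolus, read 10.50 and 10.44 at E16, against 11.43 and 11.39 at E14. The replicates of each age lay close together, and the difference of -0.95 ± 0.094 (SE) had an adjusted p of 2.1e-05 (limma). Rrs1, which in yeast helps bring the smallest ribosomal RNA into the large subunit, read 9.43 and 9.73 at E16, against 10.58 and 10.44 at E14 (-0.93 ± 0.143). Gar1, a core protein of box H/ACA particles, read 9.93 and 10.17 at E16, against 11.04 and 10.89 at E14 (-0.92 ± 0.110). In both genes replicate 1 of E16 was the lower E16 array, and no E16 array reached an E14 array.

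Rrp1b, a relative of the yeast large-subunit factor Rrp1, had the next largest difference (-0.83), followed by Bysl, a factor of the small subunit (-0.82), and Nop2, a methyltransferase of large-subunit RNA (-0.75). The 5 members not called at this step were Pes1 (-0.23), Rrp9 (-0.22), Ubtf (-0.21), Nob1 (-0.10) and Imp4 (0.01). Nob1 is the nuclease that makes the last cut in small-subunit RNA. Imp4 read 9.58 and 9.47 at E16, against 9.52 and 9.52 at E14, and the ages overlapped. The count at this step rested in part on single arrays. Without replicate 1 of E14 it was 18, and without replicate 1 of E16, the array with the highest heart muscle markers, it was 19. Without replicate 2 of E14 it was 24, and without replicate 2 of E16 it was 28. Within E16, 25 of the 36 members were lower on replicate 1 than on replicate 2, by a median of 0.082 over the members, and 52.5% of measured genes were lower on replicate 1. The part of the heart muscle markers in the result was not tested.

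From E16 to E18, 35 of 36 members fell and none rose, where 30.7% of measured genes were lower and 33.1% higher. This was the deepest step, with a median difference of -0.91, against 0.03 over measured genes. Nop56 read 8.35 and 8.48 at E18, against 10.27 and 10.50 at E16. The difference of -1.97 ± 0.095 (SE; adjusted p = 3.95e-09) corresponds to a 3.92-fold lower level. Nop58 read 8.38 and 8.62 at E18, against 10.28 and 10.60 at E16 (-1.94 ± 0.125). Dkc1 read 8.68 and 8.79 at E18, against 10.37 and 10.50 at E16 (-1.70 ± 0.10). The E18 arrays of these 3 genes were all more than 1 log2 unit below the E16 arrays. Gnl3, the nucleolar GTPase nucleostemin (-1.57), Wdr12 (-1.53), Nolc1, a chaperone of snoRNPs (-1.49), and Wdr75 (-1.47) came next.

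Ubtf was the exception, with 9.93 and 9.98 at E18, against 10.07 and 10.00 at E16. These arrays were separate only narrowly, and the difference of -0.08 did not pass the test (adjusted p = 0.589), although its second probe set did (-0.48; adjusted p = 0.00392). The smallest called falls were those of Rrp9 (-0.24), Rrp1b (-0.32) and Rrs1 (-0.50). Imp4, for which no difference was detected between E14 and E16, differed by -0.91 ± 0.105 (SE) between E16 and E18 by its main probe set, but by -0.04 (adjusted p = 0.819) by a second one. A second probe set of Bysl gave -0.24 (adjusted p = 0.0595), against -0.68 for the main one. A second one of Nip7 gave -0.16 (adjusted p = 0.360), against -1.21 for its main one. Of 2 further probe sets of Rrp1b, 1 gave -0.26 (adjusted p = 0.0583) and the other -0.35 (adjusted p = 0.00565). Leaving out any 1 array gave between 32 and 35 members lower.

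**Figure D2:**
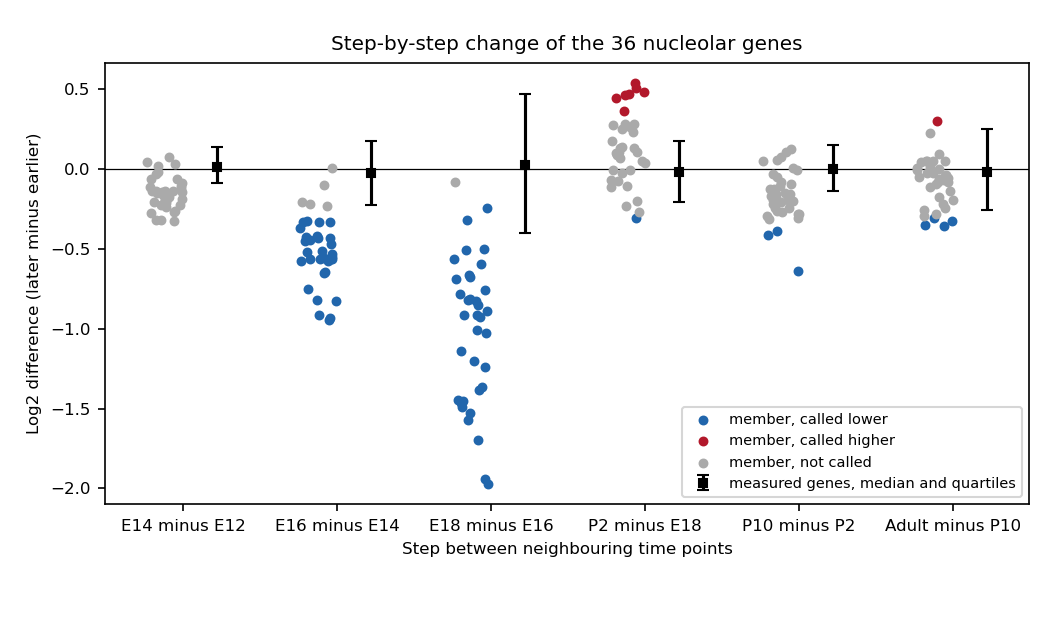
Log2 difference of each of the 36 nucleolar genes (circles) at each of the 6 steps between neighbouring ages, with the colour giving the limma call, beside the median and quartiles of the 11663 measured genes (squares with bars). The circles lie lowest at E18 minus E16, where 35 are called lower, and lie around 0 at the 3 later steps.

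The fall from E12 to Adult was then divided among the steps. The step from E12 to E14 held a median of 9.25% of it, the step from E14 to E16 26.8% and the step from E16 to E18 55.3%. A median of 37.2% had been reached at E16 and 99.7% at E18. The largest single step lay between E14 and E16 for 6 members, which were Mybbp1a, Rrs1, Rrp1b, Bysl, Nop14 and Ubtf, and between E16 and E18 for the other 30. This ranks the means only. In none of the 6 did these steps differ at an adjusted p under 0.05 (limma), and those of Nop14 were -0.564 and -0.562. Among the 4955 measured genes that were lower in Adult lung, the E16 step was the largest for 13.3%, the E18 step for 54.6% and the Adult step for 19.0%. No member had its largest step after E18.

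Because steps past and short of a threshold need not differ, the steps themselves were compared. The change from E16 to E18 was lower than that from P10 to Adult in 30 of 36 members at an adjusted p under 0.05 (21.3% of measured genes), and lower than that from E18 to P2 in 30 (23% of measured genes). It was lower than the change from E14 to E16 in 16 members (15.5% of measured genes), and higher in none of these comparisons. The steps from E16 to E18 and from E18 to P2 share the E18 arrays, so a low E18 array enlarges the difference between them. The 3 largest differences among the 16 were those of Nop56, with -1.97 from E16 to E18 and -0.53 from E14 to E16 (difference -1.44 ± 0.165; adjusted p = 7.00e-05), Nop58 (-1.43 ± 0.217) and Dkc1 (-1.14 ± 0.173). Rrp1b (0.51 ± 0.195; adjusted p = 0.0933) and Rrs1 (0.43 ± 0.247; adjusted p = 0.271) had the opposite sign and did not pass. The same held for Mybbp1a (0.16), Bysl (0.14), Ubtf (0.13) and Nop14 (0.002), each with an adjusted p of 0.567 or more. Both steps contain the same E16 arrays, so a low E16 array deepens the earlier step and shortens the later one. Without replicate 2 of E16, the number of members with a deeper E18 step was 10.

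**Figure D3:**
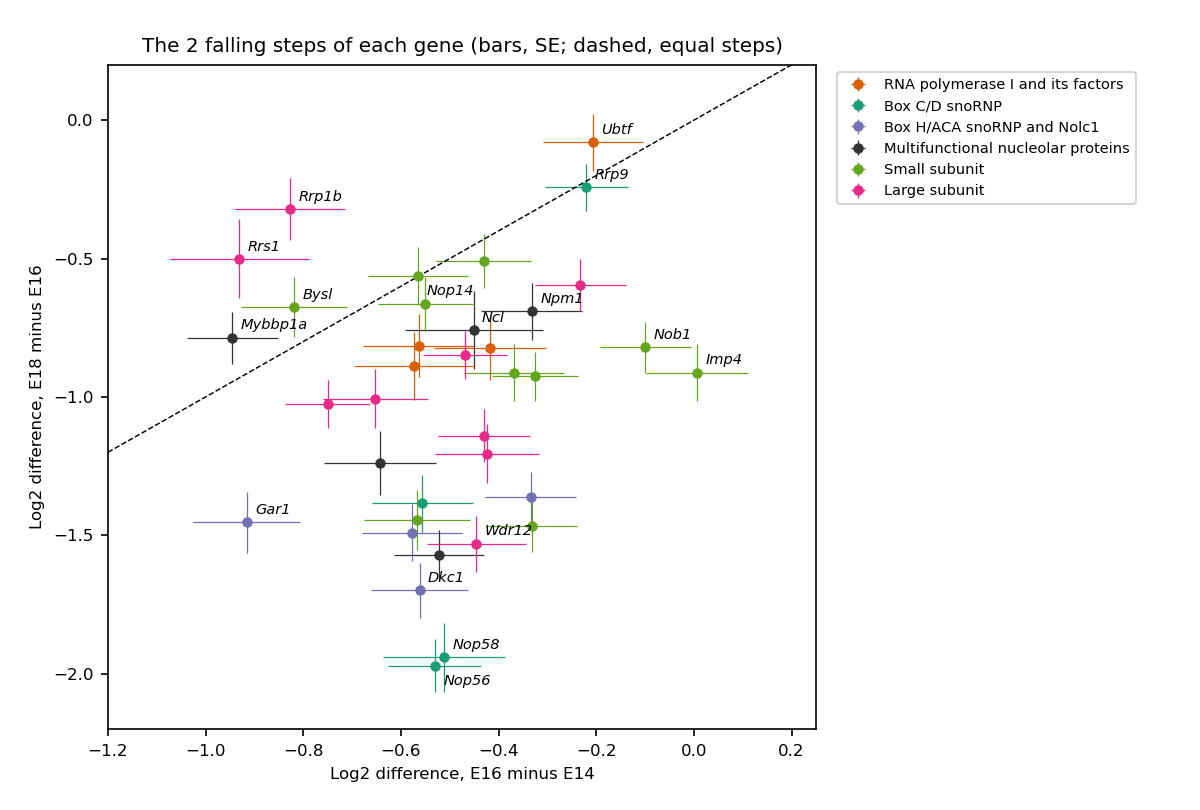
Log2 difference E16 minus E14 (horizontal) against E18 minus E16 (vertical) for the 36 nucleolar genes, coloured by role, with standard errors as bars and a dashed line of equal steps. Nop56, Nop58 and Dkc1 lie far below the line, and Mybbp1a, Rrs1, Rrp1b and Bysl lie above it, while both axes share the 2 E16 arrays.

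The members differed in how much of their fall lay before E18. By E16, 8 members had passed 50% of the total, which were Ubtf, Rrp9, Mybbp1a, Heatr1, Nop14, Bysl, Rrs1 and Rrp1b. Another 27 passed it at E18. Among the measured genes that fell, 2.38% first passed 50% at E14, 17.3% at E16 and 56.2% at E18. Rrp9 (75.5%), Bysl (71.3%) and Nop14 (67.7%) had gone furthest at E16, and Npm1 (15.1%), Pes1 (18.4%) and Nop58 (18.7%) the least. By role, the median reached at E16 was 47.3% for the genes of RNA polymerase I and 25.4% for the box C/D proteins. These percentages are descriptions, and those of Ubtf and Rrp9 rest on small totals.

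Npm1, nucleophosmin, a histone and ribosome chaperone that fills the outer zone of the nucleolus, was the only member that had not passed 50% at E18 (49.4%). Its mean level was 13.30 at E12 and 13.33 at E14, was down to 12.31 at E18, and continued through 12.04 at P2 and 11.65 at P10 to 11.29 in Adult lung. It was called lower at 4 of the 6 steps, by -0.33 to E16, -0.69 to E18, -0.39 to P10 and -0.36 to Adult, and its difference of -0.27 from E18 to P2 did not pass (adjusted p = 0.10). Its E18 step was not shown to differ from its Adult step (-0.33 ± 0.146; adjusted p = 0.118) or from its E16 step (-0.36 ± 0.179; adjusted p = 0.198). The call at the E16 step had an adjusted p of 0.0426 and was lost without either E14 array, without E16 replicate 1 and in several other settings. The calls at the P10 and Adult steps were also lost in some settings. In all, 9 members had gone less than 80% of the way at E18. After Npm1 they were Pes1 (60.1%), Utp20 (66.4%), Nob1 (72.3%), Ncl, the RNA-binding protein nucleolin (73.9%), Nop16 (77.7%), Ltv1 (78.1%), Rrp1b (78.9%) and Rrs1 (79.8%).

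From E18 to P2, across birth, 7 members rose and 1 fell, where 11.5% of measured genes were higher and 14.1% lower. Ddx21, an RNA helicase that acts in transcription and processing of ribosomal RNA, read 8.74 and 8.59 at P2, against 8.30 and 7.95 at E18 (0.54 ± 0.115). Nop56 read 8.95 and 8.89 at P2, against 8.35 and 8.48 at E18 (0.50 ± 0.095). Tsr1, a late factor of the small subunit, read 8.90 and 8.82 at P2, against 8.30 and 8.46 at E18 (0.48 ± 0.109). In all 3 both P2 arrays lay above both E18 arrays, with adjusted p of 0.00643, 0.00287 and 0.00884 (limma). None regained its E16 level.

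Bysl (0.47), Gnl3 (0.46), Wdr75 (0.45) and Gar1 (0.36) also rose. Pes1, a partner of Wdr12 and Bop1, was the member that fell, to 8.99 and 8.82 at P2, against 9.23 and 9.19 at E18 (-0.31 ± 0.094; adjusted p = 0.0442). This call was lost when any 1 array of E14, E18, P2 or Adult was left out. Quantile normalization, the mean of all probe sets and the replicate number as a block also lost it, and the block left 0 lower. The median of the 36 differences was 0.10. Without replicate 1 of P2 only 2 members were higher, Bysl and Nop56, and without replicate 1 of E18 Bysl and Tsr1 were among those lost. Without replicate 2 of E18, Ddx21 and Gar1 were lost, and without replicate 2 of P2, Bysl and Gar1 were. Nop56 was higher with any 1 array left out.

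The later steps were small. From P2 to P10, 3 members fell and none rose, where 5.9% of measured genes were lower and 6.76% higher. Nop58 read 8.27 and 8.03 at P10, against 8.81 and 8.76 at P2 (-0.64 ± 0.125; adjusted p = 0.00799). Nop56 read 8.48 and 8.53 at P10, against 8.95 and 8.89 at P2 (-0.42 ± 0.095; adjusted p = 0.0183). Npm1 read 11.73 and 11.57 at P10, against 11.99 and 12.09 at P2 (-0.39 ± 0.103; adjusted p = 0.0390). The ages did not overlap in any of the 3. Without replicate 1 of P2, or without replicate 2 of P10, 0 members were called at this step, and without replicate 2 of P2 only Nop58 was. Without replicate 1 of P10 Nop56 was lost. The call of Npm1 was also lost without either E14 array, without either E18 array, with median centring, with the methods' test and with the replicate number as a block, and that of Nop58 with the methods' test.

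From P10 to Adult, 4 members fell and 1 rose, where 21.4% of measured genes were lower and 21.2% higher. Npm1 read 11.26 and 11.32 in Adult lung, against 11.73 and 11.57 at P10 (-0.36 ± 0.103). Wdr12 (-0.35 ± 0.102) and Nop16 (-0.33 ± 0.107) fell by about as much, as did Utp20 (-0.31 ± 0.097), a scaffold of the small-subunit particle. Heatr1, which acts in transcription and in small-subunit processing, rose to 8.64 and 8.79 in Adult lung, against 8.36 and 8.48 at P10 (0.30 ± 0.097; adjusted p = 0.0353). Without P10 replicate 1 none of these 5 was called. Without Adult replicate 1 only Heatr1 was, without Adult replicate 2 only Wdr12 and Nop16 were, and without P10 replicate 2 Nop16 and Utp20 were lost. The call of Nop16 was also lost when any 1 array of E14 or P2 was left out, and with the methods' test. The mean of all probe sets lost the calls of Nop16 and Heatr1.

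**Figure D4:**
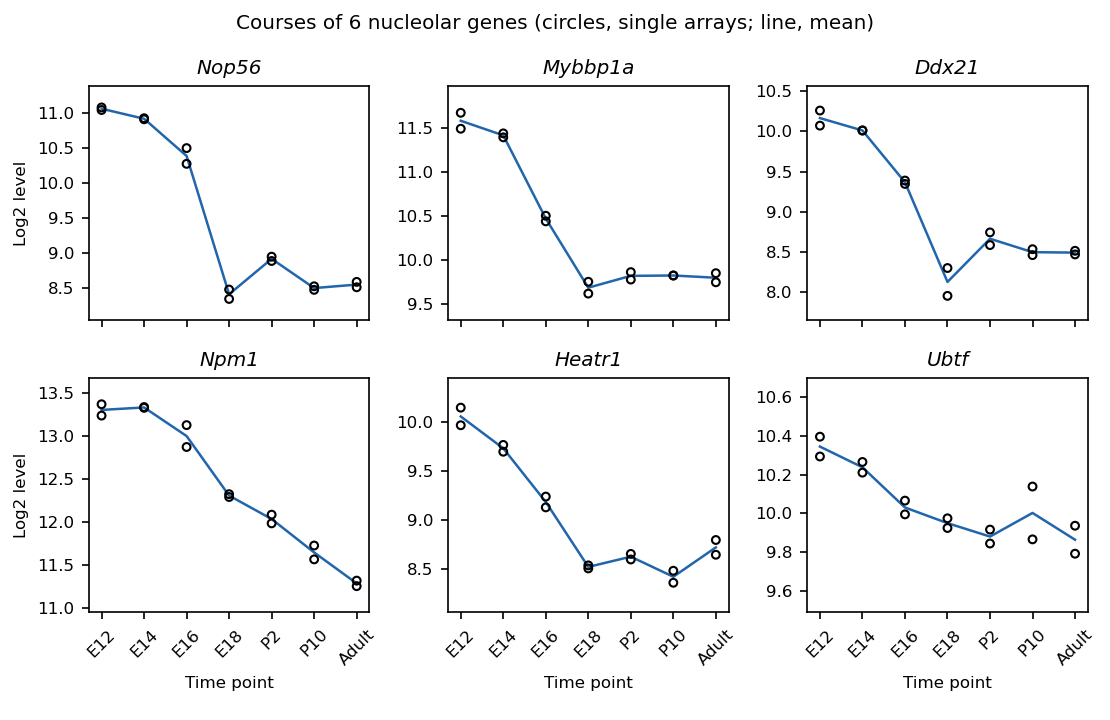
Log2 level (vertical) at each of the 7 ages (horizontal) of 6 nucleolar genes, with circles for the single arrays and a line through the age means, each panel on its own scale. Nop56 and Ddx21 are lowest at E18 and higher at P2, Mybbp1a drops most between E14 and E16, Npm1 declines through Adult, Heatr1 is higher in Adult than at P10, and Ubtf spans only 0.48.

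Adult lung was also set against E18 lung, a comparison added after the data had been seen. There 11 members were lower and 1 higher, where 28.7% of measured genes were lower and 22.6% higher, so the share of 30.6% lower was near that of the measured genes. The median difference was -0.01. Npm1 (-1.02 ± 0.103), Utp20 (-0.64 ± 0.097) and Pes1 (-0.57 ± 0.094) were the lowest, and Ddx21 was the 1 that was higher (0.36 ± 0.115; adjusted p = 0.0246). Without Adult replicate 1 the number lower was 7. The lowest age mean lay at E18 for 14 members, at P2 for 1, at P10 for 3 and at Adult for 18.

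Genes that encode other factors of ribosome biogenesis, 113 of 125 listed having a probe set of their own, were read at the same steps. In Adult against E12 lung 106 were lower and 2 higher, with a median of -1.21. At the E16 step 51 were lower (median -0.30) and at the E18 step 91 were lower and 4 higher (median -0.61). The deepest falls over the whole course were in Rpf2, a large-subunit factor (-2.53), Taf1d, a subunit of the selectivity factor of RNA polymerase I (-2.47), and Nol11, a small-subunit factor (-2.33). At the E16 step they were in Wdr46 (-1.2), Rrp12 (-1.16) and Tcof1 (-1.01), the last known as the gene of Treacher Collins syndrome in humans. Sbds, which releases a factor from nearly finished large subunits, was higher in Adult than in E12 lung (1.45 ± 0.091), as was the kinase Riok3 (0.97 ± 0.088).

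The ribosomal proteins are what this pathway assembles onto ribosomal RNA. Of 79 genes for cytoplasmic ribosomal proteins, 43 had a probe set that names only 1 gene. In Adult against E12 lung 37 were lower, with a median of -0.56, but 1 was lower at the E16 step (median 0.03) and 10 at the E18 step (median -0.11), while 16 were lower at the Adult step (median -0.19). Their median level was 13.83 and 13.87 on the E12 arrays, close to the highest value on any array, 14.99. Whether the scale was saturated there was not tested. At E18 the median change of this list from E12 had reached 17.6% of that in Adult lung, and the median change of the 36 nucleolar genes 92.4%.

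Genes of DNA replication and mitosis, which are on in dividing cells, fell at the E18 step as the members did. At the E16 step 11 of 39 were lower (median -0.28), and at the E18 step all 39 were (median -2.54). At P2 29 were higher (median 0.56), and from P10 to Adult all 39 were lower again (median -1.12). For these genes the change from E16 to E18 was lower than that from E14 to E16 in 39 of 39. Cdc6, a licensing factor of replication, differed by -3.67 at the E18 step, and Cdk1, the mitotic kinase, by -2.62 at the Adult step. The part of cell division in the course of the nucleolar genes was not tested.

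The tRNA synthetases of the cytoplasm load amino acids onto tRNAs for translation. Of 18, 11 were lower at the E16 step and 17 at the E18 step, and Wars was the 1 that was higher in Adult lung (0.48). Of 10 core subunits of RNA polymerase II, some of which RNA polymerase I shares, 2 were lower at the E16 step and 9 at the E18 step, while Polr2a, the largest subunit, was higher at E18 (0.70 ± 0.166). Of 9 epithelial markers, 6 were higher and 1 was lower at the E18 step, and of 4 endothelial markers 3 were higher. Of 5 leukocyte markers 4 were higher, with a median difference of 1.10, and of 5 mesenchyme markers 4 were higher, with a median difference of 0.46. The median level of the 9 epithelial markers was 12.97 and 13.07 at E18, against 11.17 and 10.71 at E16, and that of the 4 endothelial markers was 10.51 and 10.50 at E18, against 9.75 and 9.84 at E16. The median of 5 red blood cell markers, of which 3 were lower and 1 higher, was 6.91 and 7.17 at E18, against 7.64 and 8.33 at E16. The lower red blood cell markers were Hbb-y, Hba-x and Hbb-bh1, and the higher one was Alas2. The lower epithelial marker was Epcam. A changed share of a cell type and a changed level per cell cannot be told apart here. The part of these marker differences in the falls of the nucleolar genes was not tested.

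**Figure D5:**
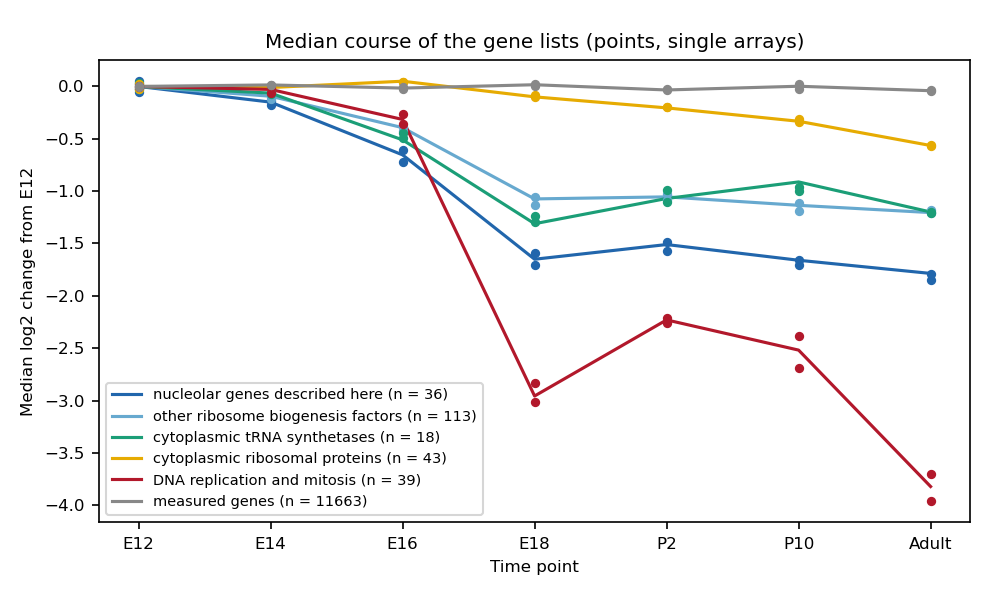
Median log2 change from the E12 mean (vertical) of 6 sets of genes at each of the 7 ages (horizontal), with a point for each array and a line through the ages. The 36 nucleolar genes and the other biogenesis factors drop at E16 and E18 and then level off. The tRNA synthetases also drop at E16 and E18, but are higher at P2 and P10 than at E18 and lower again in Adult. The genes of DNA replication and mitosis drop at E18 and again in Adult, and the ribosomal proteins decline slowly.

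Myc proteins drive transcription of many ribosome biogenesis genes, with Max as their partner and Mxd proteins and Mnt as opposing partners of Max. Of 11 genes of this network, 6 were lower and 5 higher in Adult than in E12 lung, where 42.5% of measured genes were lower and 39.5% higher. Mycn had mean levels of 6.31 in Adult and 9.33 in E12 lung (-3.03 ± 0.178), and Myc had 6.52 in Adult and 8.70 in E12 lung (-2.18 ± 0.144). Mycn fell by 0.97 at the E16 step and by 1.17 at the E18 step, and Myc by 0.69 and 0.81 at the same steps. Mxd1, at 8.60 at E18 and 7.36 at E16, rose by 1.24 ± 0.101 at the E18 step, Mnt by 1.07 and Mxd4 by 0.87, whereas Mxd3 fell by 1.55. At the E16 step Mnt was lower (-0.55) and Mxd4 higher (0.54), while Mxd1 (0.18) and Mxd3 (0.12) were not called. From P10 to Adult Mycn fell by a further 1.35 ± 0.178, a step at which 4 members were lower. Whether these changes bear on the members was not tested.

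The canonical motif of Myc and Max, the E-box CACGTG, reads the same on both strands. It was searched for in the 250 bases before the start site, taken from RefSeq promoters of mouse assembly GRCm38.p6, because the members fell together. Promoters were matched for 32 members, and Fbl, Npm1, Bop1 and Rrs1 had none in the table. The motif was found in 3 members, Rrn3, Imp4 and Nop2, or 9.4%, against 8.7% of 14369 genes on the array, so the share was near that of the other genes. The windows that hold it are shown 5′ to 3′ on the plus strand, with the motif in capitals. Rrn3, the factor that readies RNA polymerase I for initiation, has it at chr16:13780467-13780506 and chr16:13780634-13780673, Imp4 at chr1:34439691-34439730 and Nop2 at chr6:125131806-125131845.
Rrn3 upstream window: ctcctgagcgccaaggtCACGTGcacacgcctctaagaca
Rrn3 window near the start site: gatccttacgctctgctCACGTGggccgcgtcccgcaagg
Imp4 window: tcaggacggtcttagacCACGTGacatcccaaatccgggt
Nop2 window: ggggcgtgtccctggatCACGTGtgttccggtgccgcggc
These 3 genes all fell at the E18 step by their main probe sets, and their courses were not compared by a test. Rrn3 read 7.84 and 7.51 at E18, against 8.56 and 8.44 at E16 (-0.82), and Nop2 8.01 and 8.10 at E18, against 9.07 and 9.09 at E16 (-1.02). Imp4 differed by -0.91 at that step. At the E16 step Nop2 fell by 0.75 and Rrn3 by 0.42, and Imp4 differed by 0.01. A match of these letters is a description of the window and not a bound site.

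The members not yet given in full also fell at the E18 step. The subunits of RNA polymerase I, Polr1a and Polr1b, fell by 0.57 and 0.56 at the E16 step and by 0.89 and 0.81 at the E18 step. Fbl, the methyltransferase of box C/D particles, fell by 1.38 at E18, and Nhp2, a core protein of box H/ACA particles, by 1.36. Wdr43 (-0.93) and Ltv1 (-0.91) of the small subunit, and Nip7 (-1.21) and Ddx18 (-1.14) of the large subunit, all had adjusted p of 8.88e-06 or less at the E18 step by their main probe sets. The second probe set of Nip7 did not pass at that step. Nob1 fell by 0.82 and Pes1 by 0.60 at that step, and Heatr1 by 0.67 and Utp20 by 0.51. After E18 none of Polr1a, Polr1b, Rrn3, Nhp2, Nolc1, Dkc1, Wdr43, Nop2, Nip7 and Ddx18 was called at any step in the main fit. Some other settings called Dkc1, Nolc1, Ddx18 or Wdr43 at P2, Nhp2 at P10 or Rrn3 in Adult against P10.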

How the data were processed

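RNA of pooled mouse lungs had been measured on 14 Affymetrix mouse genome arrays. The authors deposited log2 values. Descriptions of how differ: Robust Multichip Average in Partek 6.4 per the methods, and GCRMA (version not given) with the same program per the deposited notes. Which of them gave the values is unknown. Both correct the background, normalize between arrays and summarise probes, and GCRMA pulls low signals down further, so differences of dim genes depend on that choice. The number of arrays limits the precision.

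The values were used as deposited, without 64 control probe sets, which left 45037. Of these, 34945 carried 1 symbol, 932 several and 9160 none, and only the first kind could stand for a gene. Analyses used R 4.3.3 with limma 3.58.1. A model with 7 age means was fitted to all arrays and probe sets (7 residual and 6.04 prior degrees of freedom). Contrasts between ages, and between steps, were called at a Benjamini-Hochberg adjusted p under 0.05 over all probe sets. "The methods' test" is a name for the same linear model without moderation. The study used an analysis of variance over the 7 ages and reported no test of single steps. The scripts were tested on simulated data. The 36 members and the gene lists were chosen with earlier results of these data known. All 36 were open to naming. Those given in full are the 5 largest falls and 5 smallest changes of Adult against E12 and the 3 largest called falls and rises of each step, and of other lists up to 3 genes each way. Alternatives were other scalings, filters, probe set choices, variance models, a stricter call, a replicate block and leaving out each array.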

Additional observations from a re-analysis of the deposited data

How the results depend on the processing

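All 36 members were lower in Adult than in E12 lung under each setting tried but the stricter call below, which gave 32, and none became higher. At the E18 step leaving out 1 array gave 32 to 35 lower. Leaving out arrays moved the other counts to 18 to 31 (lower at E16), 0 to 1 lower and 2 to 8 higher (P2), 0 to 3 lower (P10), 0 to 5 lower and 0 to 1 higher (Adult against P10), and 7 to 12 lower and 0 to 2 higher (Adult against E18). For the comparisons of steps the ranges were 28 to 30 (E18 against Adult step), 10 to 16 (E18 against E16 step) and 25 to 30 (E18 against P2 step), and 33 to 34 members were dynamic.

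Apart from the stricter call, other settings moved the E16 and E18 counts by less than 1.5 times. Quantile normalization gave 25 lower at E16, 0 lower and 11 higher at P2, and 6 higher in Adult against E18, for which centring on the median gave 3. With only probe sets of Max above 7, there was 1 lower at E14 (Wdr75), 5 at P10 and 7 in Adult against P10, and 3 higher in Adult against E18. The probe set with the largest F gave 2 lower at P2. The mean of all probe sets gave 6 lower at P10, 0 higher in Adult against P10 and 2 higher in Adult against E18. An intensity trend with a robust prior gave 1 lower at E14, 2 lower at P2 and 3 higher in Adult against E18. The methods' test gave 28 lower at E16, 33 at E18 and 1 at P10, and 0 higher in Adult against E18. A stricter call, which also asks for a difference over 1.2 with the higher of both means over 7, left 0 lower at E16 and 13 at E18, and 0 in either direction at P2, P10, Adult against P10 and Adult against E18. By its construction it removes smaller changes; for the other settings the cause was not tested.

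No pairing of arrays by replicate number is stated, and the following correlations cannot exclude one. Over 21 pairs of ages, deviations of same-numbered arrays correlated between -0.267 and 0.123, with 2 pairs over 0.1. With the replicate number as a block 0 members were lower at P2, and no other count moved by more than 1.5 times.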
